A study of Capra hircus with 2 samples.

Results

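The cells described here are 1663 barcodes of the fetal goat ovary at embryonic day 85 (E85), chosen because they carried transcripts of TCF21 or CA3 and lacked those of several other cell types. A barcode belonged to them if it had 500 or more detected genes, 2 or more unique molecular identifiers (UMIs, each tagging 1 captured transcript) of TCF21 and CA3 together, and no UMI of PENK, NPY, PECAM1, KDR, KRT8, FST or AIF1. It could hold at most 2 UMIs of the mitosis genes TOP2A, CENPF and TPX2 together. They made up 41.29% (exact binomial 95% interval 39.76 to 42.82) of the 4028 E85 barcodes with 500 or more genes, out of 4397 E85 barcodes and 12743 in the series. They are called TCF21/CA3 cells below. The series profiled female goat (Capra hircus) ovary, with no treatment and no genetic change named, at E85 and E125 by droplet single-cell RNA sequencing. There was 1 library per stage, and the labels do not say how many animals each held.

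The ovarian stroma is the connective tissue between and around the forming follicles, and its fibroblast-like cells lay down collagens and small proteoglycans such as decorin. TCF21 is a basic helix-loop-helix transcription factor of mesenchyme, and in the mouse it marks stromal progenitors of the gonad and is needed for gonad, kidney and lung development. CA3 is a cytosolic carbonic anhydrase, an enzyme that hydrates carbon dioxide, best known from skeletal muscle and fat. ITIH5 belongs to the heavy chains that bind hyaluronan in the extracellular matrix, and CTTNBP2 is a cortactin-binding protein studied mainly in neurons.

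Of the 4028 barcodes, 2401 had 2 or more UMIs of TCF21 and CA3 together, and 480 of these dropped out for PENK or NPY, 84 for the mitosis genes and 174 for a gene of another cell type. Just inside the limit, 301 TCF21/CA3 cells had a sum of exactly 2 UMIs, and just outside it 337 barcodes that met every other condition had a sum of 1. Another 490 had a sum of 0. With 1 UMI of PENK or NPY, 205 barcodes that met all else were left out. The mitosis limit lay between 28 TCF21/CA3 cells with a sum of 2 and 9 barcodes with a sum of 3. Within 50 genes of the gene limit stood 12 TCF21/CA3 cells above it and 7 barcodes below it.

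TCF21/CA3 cells held 5241285 UMIs in all, with 757 in the shallowest, a median of 2920 and 20812 in the deepest barcode, and a median of 1137 genes. The 2365 other E85 barcodes had a median of 3454 UMIs, but 51 of them exceeded 20000 UMIs and gave 19.33% of that group's UMIs. The median mitochondrial share was 3.885% in TCF21/CA3 cells and 4.417% in the other E85 barcodes. The barcodes with the highest doublet scores included 67 TCF21/CA3 cells. The 2 libraries shared 13 barcode strings, 5 of them TCF21/CA3 cells. Levels are given as a gene's share of the summed UMIs of a group, scaled to 1000000 (CPM), with exact Poisson 95% intervals, and ratios with exact conditional 95% intervals. These intervals cover counting error only. Cells of 1 library are not replicates, so no test was run and every difference describes these 2 libraries.

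TCF21 and CA3 chose the cells, so their levels are a description. TCF21 stood at 1457 CPM (1425 to 1491) in TCF21/CA3 cells and at 316 CPM (306.1 to 326.2) in the other E85 barcodes. A single TCF21/CA3 cell held between 0 and 26 TCF21 UMIs, with a median of 4, and 97.59% held at least 1, against 15.75% of the 127 endothelial barcodes, those with 3 or more UMIs of PECAM1, KDR and CDH5. CA3 stood at 375.3 CPM (358.9 to 392.2) in TCF21/CA3 cells and at 57.75 CPM (53.55 to 62.18) in the other E85 barcodes. The median TCF21/CA3 cell had 1 CA3 UMI, the highest had 15, and 52.68% had at least 1, against 7.874% of endothelial barcodes. Both genes were low in endothelial and germ cell barcodes, the other types gated here. In the endothelial barcodes TCF21 was at 45.8 CPM and CA3 at 12.1 CPM. In the 63 barcodes with 3 or more UMIs of the germ cell genes DDX4, DAZL and MAEL, TCF21 was at 18.6 CPM and CA3 at 4.24 CPM.

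Most TCF21/CA3 cells qualified through TCF21. By UMIs, 787 had 2 or more of TCF21 and none of CA3, 40 had 2 or more of CA3 and none of TCF21, and 836 had both. The fullest combination was 2 TCF21 UMIs with no CA3 UMI, with 208 cells. To set the genes against each other at equal depth, barcodes that met the conditions other than that on TCF21 and CA3 were thinned to 2000 UMIs each. A CA3 UMI was then found in 11.95% (9.25 to 15.1) of 502 barcodes without TCF21. The share was 28.33% (24.03 to 32.94) with 1 TCF21 UMI, 39.01% (33.7 to 44.6) with 2 and 42.11% (38.3 to 46.0) with 3 or more. CA3 was thus found more often where TCF21 was found, and the shares with 2 and with 3 or more TCF21 UMIs had overlapping intervals. The conditions do not remove every other cell type, so the barcodes without TCF21 can include cells that are not stroma. Their part in this contrast was not tested. In thinned endothelial barcodes the share with CA3 was 5.042%.

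**Figure D1:**
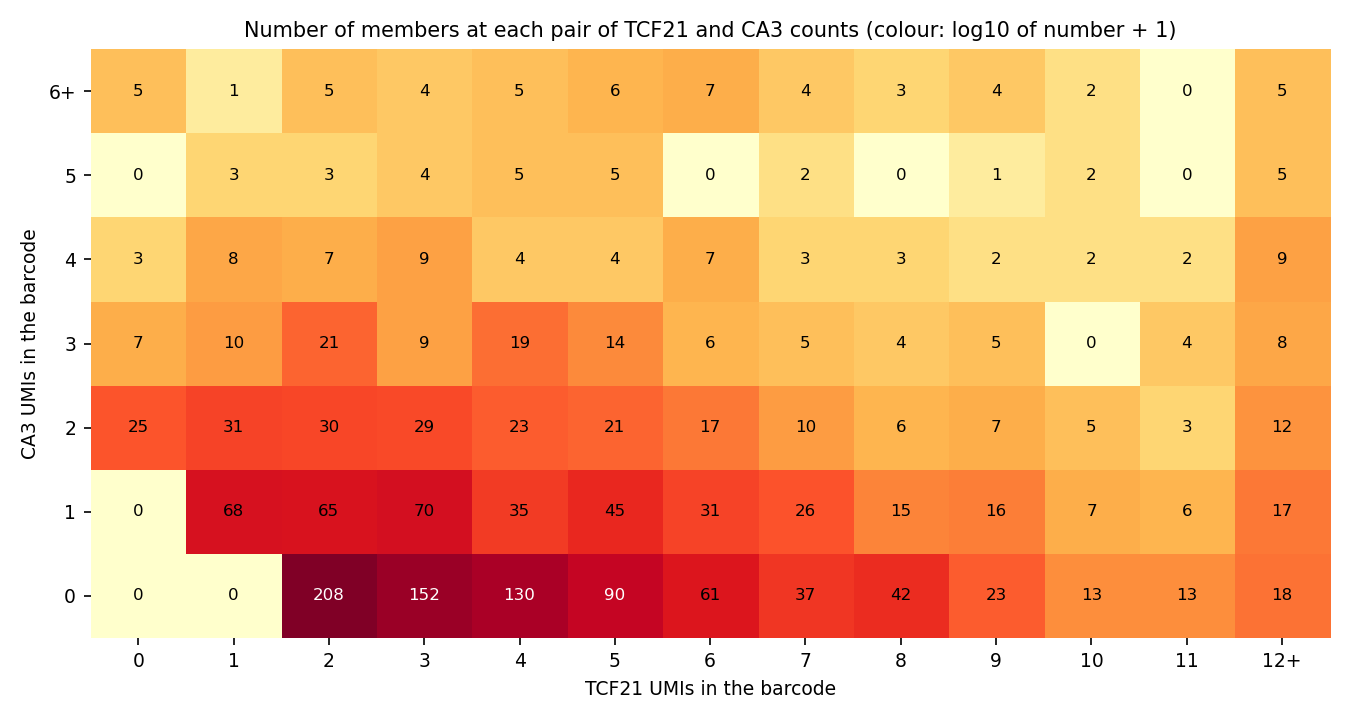
Number of TCF21/CA3 cells at each combination of TCF21 UMIs (horizontal axis, 12+ standing for 12 or more) and CA3 UMIs (vertical axis, 6+ standing for 6 or more), with colour on a log10 scale. The lower left corner is empty by the rule, the largest cell of the grid holds 208 barcodes, and the column without TCF21 holds 40.

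ITIH5 and CTTNBP2, which name these cells but were not part of the rule, were both detected in about as many TCF21/CA3 cells as CA3. ITIH5 stood at 369.6 CPM (353.3 to 386.4) in TCF21/CA3 cells and at 108.5 CPM (102.7 to 114.5) in the other E85 barcodes, a ratio of 3.41 (3.17 to 3.66). CTTNBP2 stood at 294.8 CPM (280.3 to 309.8) in TCF21/CA3 cells and at 96.1 CPM (90.7 to 101.8) in the other E85 barcodes, a ratio of 3.07 (2.84 to 3.31). At full depth an ITIH5 UMI was found in 54.3% of TCF21/CA3 cells, with a highest count of 11, in 29.77% of the other E85 barcodes and in 34.65% of the endothelial barcodes, whose median depth was 7052 UMIs against 2920 in TCF21/CA3 cells. The shares depend on depth, so they were taken again after thinning to 2000 UMIs. ITIH5 was then found in 43.98% of TCF21/CA3 cells, 20.56% of the other E85 barcodes and 13.45% of the endothelial barcodes. CTTNBP2 was found in 38.66% of thinned TCF21/CA3 cells, 19.03% of the other E85 barcodes and 16.81% of the endothelial barcodes.

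**Figure D2:**
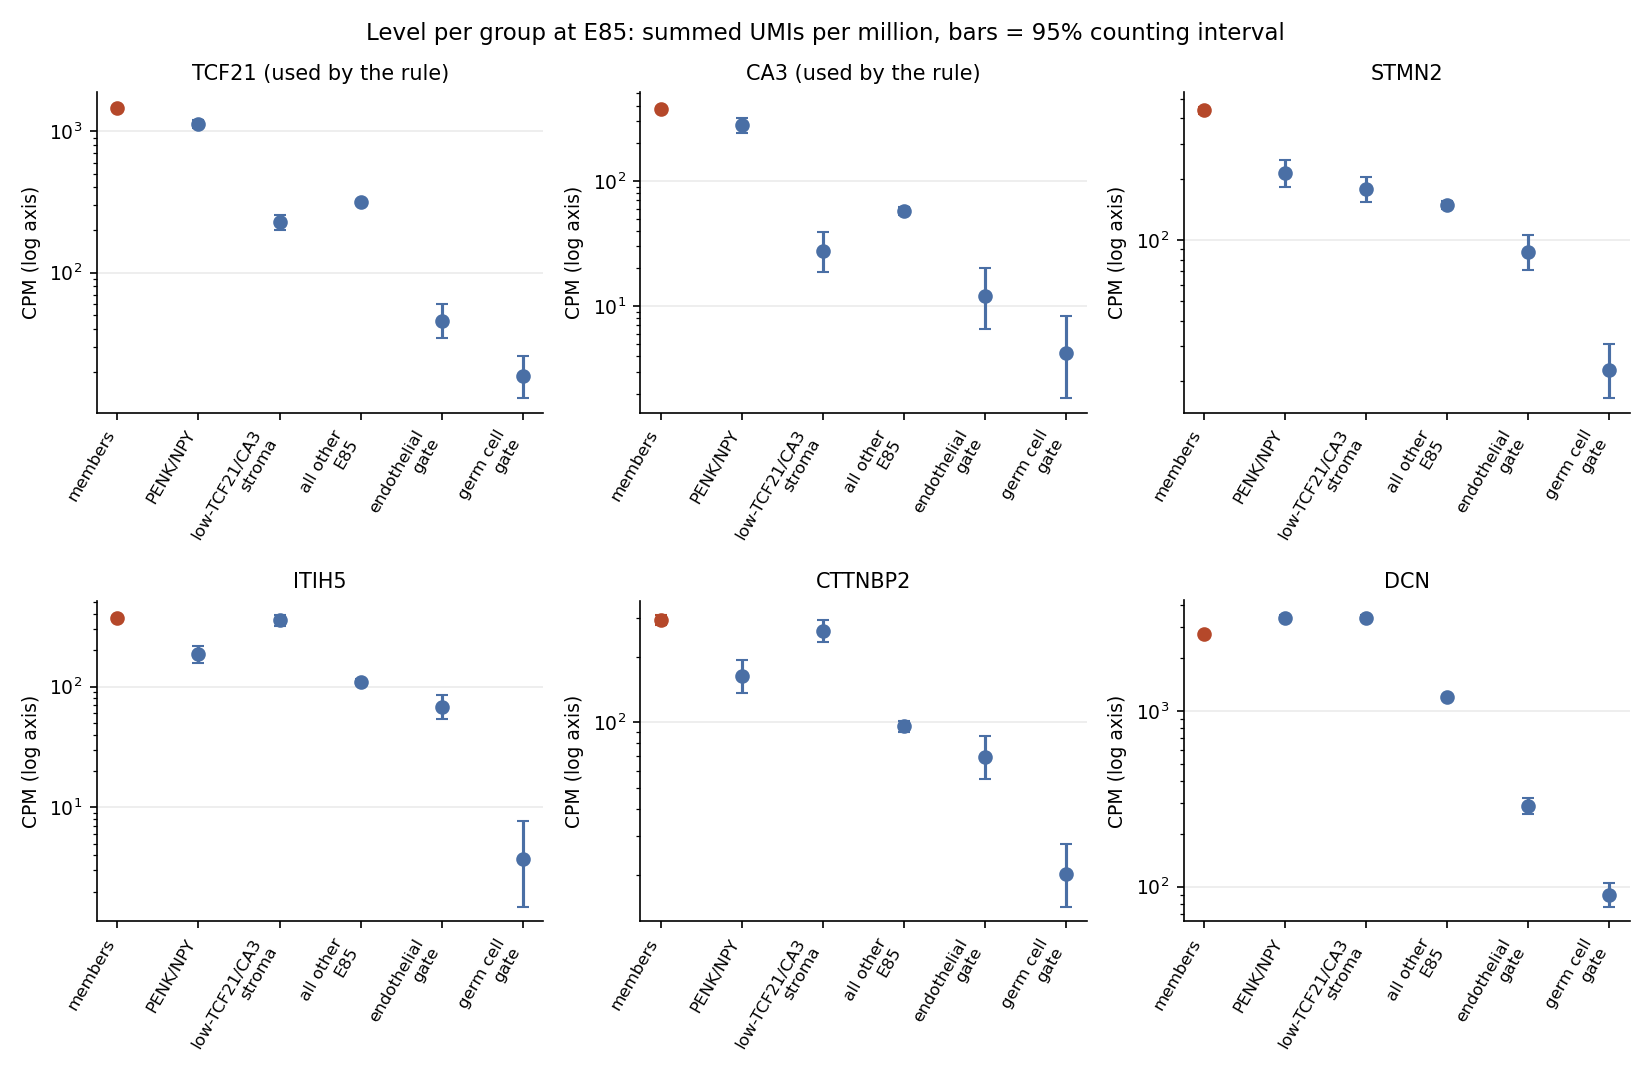
Level of 6 genes in 6 groups of E85 barcodes, as CPM on a log axis with 95% counting intervals; TCF21/CA3 cells are the red points at the left of each panel. TCF21 and CA3 were used by the rule. Of the 6 groups shown, STMN2 is highest in TCF21/CA3 cells, at 438.4 CPM. ITIH5 and CTTNBP2 lie near the same level in stroma with 0 or 1 UMI of TCF21 and CA3, and DCN lies somewhat higher there.

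The label of stromal cell fitted the markers summed over the group, though not every barcode need be stroma. The list of stromal markers summed to 5612 CPM without TCF21 in TCF21/CA3 cells, with every one of its 13 genes detected, and to 2830 CPM in the other E85 barcodes. DCN, the proteoglycan decorin, was found in 97.11% of TCF21/CA3 cells, with a median of 7 UMIs and a highest count of 69, and in 30.71% of endothelial barcodes. Its level was 2736 CPM (2691 to 2781) in TCF21/CA3 cells and 1196 CPM (1177 to 1216) in the other E85 barcodes. NR2F2, a nuclear receptor of gonadal interstitial cells, stood at 720.6 CPM in TCF21/CA3 cells and 326.2 CPM in the other E85 barcodes. Markers of other types were mostly lower. The 10 germ cell markers summed to 245.7 CPM in TCF21/CA3 cells and 2218 CPM in the other E85 barcodes. Of their 1288 UMIs in TCF21/CA3 cells, 1 cell held 74. Pregranulosa markers summed to 116.4 CPM in TCF21/CA3 cells and 475.8 CPM in the other E85 barcodes, and surface epithelium markers to 27.47 CPM in TCF21/CA3 cells, with LGR5 and CDH1 at 0, and 259.7 CPM in the other E85 barcodes. Endothelial markers outside the rule summed to 79.18 CPM in TCF21/CA3 cells, with CLDN5 and TIE1 at 0, and to 226.2 CPM in the other E85 barcodes. Myeloid markers summed to 16.79 CPM in TCF21/CA3 cells, with CD163, CSF1R and CD14 at 0, and to 291.9 CPM in the other E85 barcodes. The rule's own genes PECAM1, KDR, KRT8, FST and AIF1 removed barcodes of these types. Lymphoid markers summed to 2.29 CPM in TCF21/CA3 cells, where 7 of 8 were at 0, and 25.75 CPM in the other E85 barcodes. Perivascular markers were about level, with 402.2 CPM in TCF21/CA3 cells and 407.4 CPM in the other E85 barcodes, and 1 TCF21/CA3 cell held 224 of the 2108 UMIs. Markers of steroid-making cells summed to 14.69 CPM in TCF21/CA3 cells and 35.37 CPM in the other E85 barcodes. Glial markers stood at 12.78 CPM and erythroid markers at 1.145 CPM in TCF21/CA3 cells, against 10.12 and 2.632 CPM in the other E85 barcodes.

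TCF21/CA3 cells were first set against all other E85 barcodes, a mixture of the remaining stroma with germ, pregranulosa, endothelial and blood cells. Of 10064 genes with 50 or more summed UMIs, 314 (3.12%) were 2-fold or more higher and 1665 (16.5%) 2-fold or more lower, with a median log2 ratio of -0.07. Since the contrast is that of the rule, these counts describe the cells chosen. After thinning every barcode to 2000 UMIs, 93 genes were higher and 472 lower, and when CPM were averaged over barcodes 90 were higher and 1161 lower. The 51 deep barcodes weigh less in both of these alternatives.

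The largest ratios, among genes of 50 CPM or more, were a mixed group of secreted, membrane and cytoskeletal genes. ADM, the vasodilator peptide adrenomedullin, stood at 158.9 CPM in TCF21/CA3 cells and 44.26 CPM in the other E85 barcodes, a ratio of 3.59 (3.22 to 4.01). DHRS3, which reduces retinaldehyde to retinol and so limits retinoic acid synthesis, stood at 573.5 CPM in TCF21/CA3 cells and 189.8 CPM in the other E85 barcodes, a ratio of 3.02 (2.86 to 3.19). STMN2, a stathmin that destabilises microtubules and is best known from neurons, stood at 438.4 CPM in TCF21/CA3 cells and 149.1 CPM in the other E85 barcodes, a ratio of 2.94 (2.77 to 3.13). These 3 genes differ in how they are spread over the cells. DHRS3 was found in 71.32% of TCF21/CA3 cells and 48.82% of the deeper endothelial barcodes. ADM was found in 31.57% of TCF21/CA3 cells, with at most 6 UMIs, and 14.96% of endothelial barcodes. STMN2 was found in 36.26% of TCF21/CA3 cells, with up to 33 UMIs in one of them, and 15.75% of endothelial barcodes. GRIN2B, a subunit of the NMDA glutamate receptor, had the largest ratio of the group, 3.61 (3.03 to 4.31), at a low level of 63.53 CPM in TCF21/CA3 cells and 17.6 CPM in the other E85 barcodes.

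Other genes of that group act outside the cell or at its surface. They were the matrix genes COL12A1 (ratio 3.01) and MXRA5 (3.23), the matricellular protein CCN2 (3.004), the heparan sulfate sulfatase SULF1 (2.89), the scavenger receptor COLEC12 (3.24) and OLFML1 (3.05). Inside the cell act PLA2G4A, a phospholipase that releases arachidonic acid (3.36), the exchange factor RASGEF1B (3.21) and KRT25, a keratin known from hair follicles (3.05). Under thinning the 15 largest ratios lay between 1.98 and 2.66. The 10 smallest ratios belonged mostly to genes of blood and endothelial cells, which the rule removes through AIF1, PECAM1 and KDR, and of germ cells. LYVE1 of lymphatic endothelium and macrophages stood at 0.763 CPM in TCF21/CA3 cells and 58.57 CPM in the other E85 barcodes. The macrophage and leukocyte genes CTSS, LCP1, HLA-DRA, SPP1 and C1QC lay at or below 2.48 CPM in TCF21/CA3 cells. The germ cell genes TDRD15 and NPM2, with SAXO1 and PCSK1, lay at or below 2.29 CPM in TCF21/CA3 cells.

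The lists of stromal and matrix genes are read against the background of 3.12% higher and 16.5% lower genes. Of 13 measured stromal markers, 6 were 2-fold higher and 0 lower, with a median log2 ratio of 1.00. Of 13 measured collagens, 3 were higher and 2 lower (median 0.78). COL1A1, a chain of the main fibrillar collagen, stood at 502.4 CPM in TCF21/CA3 cells and 292.4 CPM in the other E85 barcodes, a ratio of 1.72. COL5A2, a chain that regulates fibril width, stood at 183 CPM in TCF21/CA3 cells and 78.89 CPM in the other E85 barcodes, a ratio of 2.32. Of 37 other matrix genes, 11 were higher and 4 lower (median 0.54). The most abundant after DCN, SPARC, was not among them, at 686.7 CPM in TCF21/CA3 cells and 798.7 CPM in the other E85 barcodes. Of 21 genes of matrix turnover, 4 were higher and 1 lower (median 0.63). MMP2, a gelatinase, stood at 329.7 CPM in TCF21/CA3 cells and 136.6 CPM in the other E85 barcodes, a ratio of 2.41, while its inhibitor TIMP1 had a ratio of 1.13. The medians shrink when deep barcodes weigh less, to 0.46 for stromal markers and 0.26 for collagens after thinning.

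Transcription factors of the gonad's somatic cells split, beside 3.12% higher and 16.5% lower over all measured genes. Of 27 measured without TCF21, 7 were 2-fold higher and 6 lower (median log2 ratio 0.52). SNAI2, a repressor of epithelial genes, had a ratio of 2.60, with 228.8 CPM in TCF21/CA3 cells and 88.02 CPM in the other E85 barcodes. TBX3, a T-box repressor, had a ratio of 2.41, with 385 CPM in TCF21/CA3 cells and 159.7 CPM in the other E85 barcodes. WT1, which is needed to form the gonad, was shared more widely, with 361.4 CPM in TCF21/CA3 cells and 249.2 CPM in the other E85 barcodes. Of 12 possible bHLH partners or antagonists of TCF21, 0 were higher and 7 lower. Those of the list with most UMIs were ID3, an inhibitor of bHLH proteins, at 272.3 CPM in TCF21/CA3 cells and 232.5 CPM in the other E85 barcodes, and the E protein TCF12, at 131.5 CPM in TCF21/CA3 cells and 93.78 CPM in the other E85 barcodes. CA3 stood alone among carbonic anhydrases: of the 3 others measured, CA11 was at 27.66 CPM, CA5B at 4.961 CPM and CA4 at 0.191 CPM in TCF21/CA3 cells. In the other E85 barcodes CA11 was at 18.26 CPM, CA5B at 5.182 CPM and CA4 at 24.1 CPM. Of 10 HOX genes, which set position along the body axis, 2 were higher and 1 lower, and HOXC4 was the most abundant at 87 CPM in TCF21/CA3 cells and 38.91 CPM in the other E85 barcodes.

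The signalling lists differed among themselves, beside 3.12% higher and 16.5% lower over all measured genes. Counts near these shares are not read as a pattern. Of 19 WNT genes, 3 were higher and 1 lower. Among them the ligand WNT5A stood at 169 CPM in TCF21/CA3 cells and 83.82 CPM in the other E85 barcodes, a ratio of 2.02, and the secreted WNT antagonist FRZB at 113.3 CPM in TCF21/CA3 cells and 50.51 CPM in the other E85 barcodes, a ratio of 2.24. Of 27 BMP and TGF-beta genes, 2 were higher and 7 lower, of 6 hedgehog genes 2 were higher and 0 lower (median log2 ratio 0.80), and of 11 Notch genes 1 was higher and 6 lower (median -1.26). DLK1, a non-canonical Notch ligand, was the one higher, at 145 CPM in TCF21/CA3 cells and 64.33 CPM in the other E85 barcodes. Of 24 PDGF, FGF and IGF genes, 5 were higher and 4 lower. The receptor PDGFRA stood at 168.9 CPM in TCF21/CA3 cells and 72.06 CPM in the other E85 barcodes, and the IGF-binding proteins IGFBP6 and IGFBP5 were abundant at 1437 and 1329 CPM in TCF21/CA3 cells. Of 15 retinoic acid genes, 2 were higher and 5 lower. RARRES2, the secreted protein chemerin, stood at 2016 CPM in TCF21/CA3 cells and 1736 CPM in the other E85 barcodes. Of 25 guidance and adhesion genes, 6 were higher and 5 lower. They included the chemokine CXCL12, at 170.2 CPM in TCF21/CA3 cells and 68.36 CPM in the other E85 barcodes, which also counts among the 10 chemokine and complement genes (5 higher, 2 lower). Of 12 contractile genes, 3 were higher and 0 lower, with CALD1 at 1060 CPM in TCF21/CA3 cells and 456.9 CPM in the other E85 barcodes.

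Lists of cell division, stress and energy metabolism gave 0 genes that were 2-fold higher. Over all measured genes 3.12% were higher and 16.5% lower. All 11 measured mitosis genes outside the rule were lower, which the rule's limit on 3 mitosis genes bears on. Of 14 replication genes 4 were lower, of 13 G1 regulators 4, and of 15 immediate early and heat shock genes 3. None of 12 mitochondrial, 12 glycolytic and 10 nuclear respiratory genes passed 2-fold in either direction. The mitochondrial genes had a median log2 ratio of -0.62, and the germ cell barcodes, which are among the other E85 barcodes, had a median mitochondrial share of 10.76%. Of 12 nuclear receptors 3 were higher and 2 lower, while of 7 steroid synthesis genes, and likewise of 9 neuropeptide and secretory genes outside the rule, 0 were higher and 5 lower.

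The limit of 2 UMIs divides a continuous range, so the genes were followed across it. Barcodes that met the other conditions were placed in bands of 0, 1, 2, 3 to 5, and 6 or more UMIs of TCF21 and CA3, with 490, 337, 301, 681 and 681 barcodes. DCN stood at 1023, 2958, 2900, 2697 and 2715 CPM along these bands. It was low in the band of 0, which also holds cells of other types, and differed little from 1 UMI upwards. ITIH5 stood at 129.1, 287.9, 403.3, 375.2 and 353.9 CPM, and within the TCF21/CA3 cells the intervals of its lowest and highest bands overlapped. STMN2 stood at 80.17, 180.2, 303.7, 321.1 and 579.6 CPM. Of the 8 genes plotted, STMN2 and, by less, DHRS3 had an interval in the band of 6 or more above that of the band of 3 to 5, with 620.3 CPM of DHRS3 against 532.5 CPM. COL1A1 ran the other way from 1 UMI upwards, with 746.8, 638.9, 509.1 and 452.2 CPM. The median depth was 2323 UMIs in the band of 1 and 3299 in the band of 6 or more, so deeper barcodes reach higher bands, and the part of depth in these trends was not tested.

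**Figure D3:**
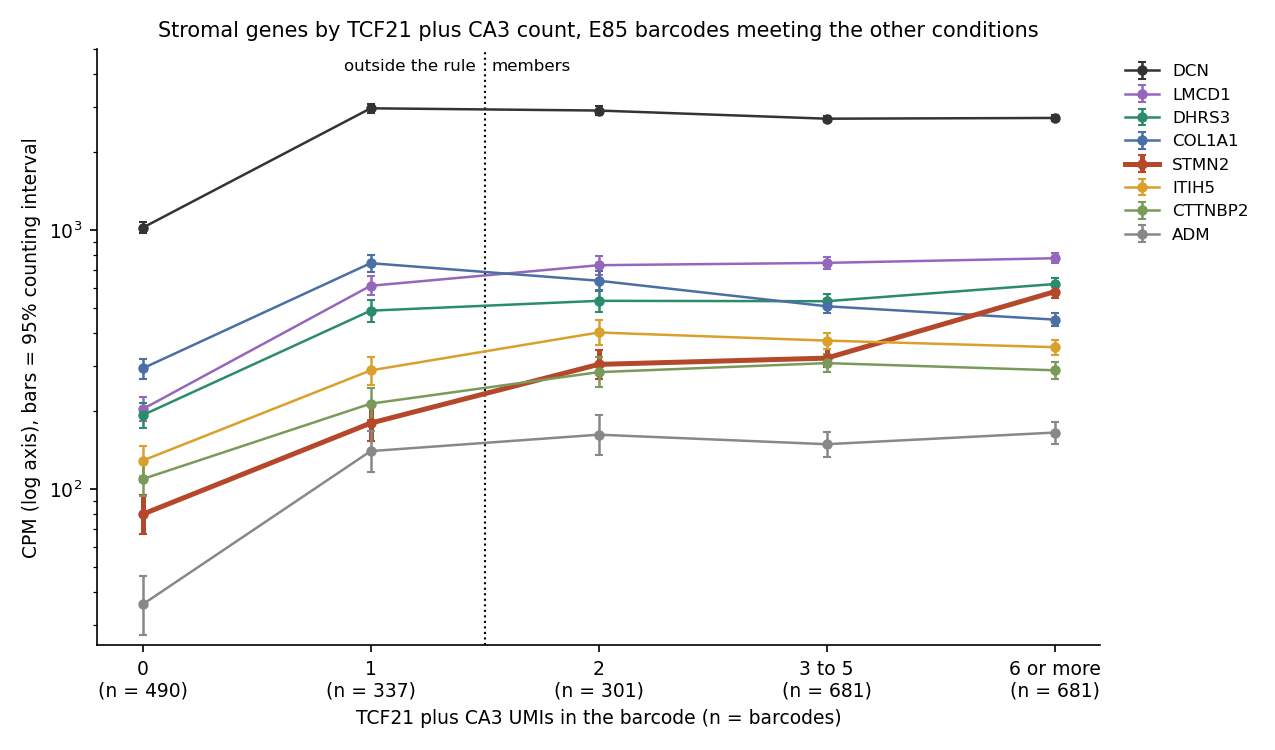
CPM (log axis, bars are 95% counting intervals) of 8 genes in E85 barcodes that met the rule's other conditions, by their TCF21 plus CA3 UMIs; the dotted line separates TCF21/CA3 cells, at the right, from barcodes outside the rule. STMN2 climbs to 579.6 CPM in the band of 6 or more, whereas DCN differs little from 1 UMI upwards, with 2958 CPM at 1 UMI and 2715 CPM at 6 or more.

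A closer reference is stroma that shares the TCF21/CA3 cells' clusters but had 0 or 1 UMI of TCF21 and CA3 and met the other conditions. This reference of 498 barcodes was chosen after the data were seen, and was shallower, with a median of 2060 UMIs. It was set against the 1531 TCF21/CA3 cells of the same clusters. Of 6752 measured genes, 60 (0.889%) were 2-fold higher and 49 (0.726%) lower. With TMM factors, which shift the median log2 ratio by 0.10, 81 were higher and 33 lower, after thinning 86 were higher and 34 lower, and averaged over barcodes 63 were higher and 93 lower. The low-TCF21/CA3 sum of 1123449 UMIs is the smaller, so genes near the minimum rest on few UMIs there. Among genes with a symbol, 50 CPM in 1 group and no part in the rule, only STMN2 was 2-fold higher in the main values. Stromal markers without TCF21 summed to 5853 CPM in these TCF21/CA3 cells and 8115 CPM in the low-TCF21/CA3 stroma, and perivascular markers to 331.7 CPM in TCF21/CA3 cells and 530.5 CPM in the low-TCF21/CA3 stroma; the part of these in the other ratios was not tested. STMN2 had the largest ratio of the named genes, with 457.7 CPM in TCF21/CA3 cells and 178 CPM in the low-TCF21/CA3 stroma, or 2.57-fold (2.22 to 2.99). MYC, a transcription factor of cell growth, followed with 88.79 CPM in TCF21/CA3 cells and 48.96 CPM in the low-TCF21/CA3 stroma, a ratio of 1.81 (1.37 to 2.45). The other 8 highest named genes, IFIT1, PSMB9, P2RY14, PLA2G4A, GADD45GIP1, SRSF4, CCN2 and DDX50, had ratios of 1.52 to 1.75. ITIH5 and CTTNBP2 were close to level, with a ratio of 1.12, whose interval began at 1.003, for ITIH5 and 1.203 (1.06 to 1.37) for CTTNBP2.

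The named lower genes were led, CYP17 apart, by CRABP1, a retinoic acid carrier, 8.38-fold lower. Of the 81 CRABP1 UMIs in the low-TCF21/CA3 stroma, 61 came from 11 barcodes of cluster 1 and 8 from 1 barcode of cluster 7. POSTN, the matricellular protein periostin, stood at 78.26 CPM in TCF21/CA3 cells and 478 CPM in the low-TCF21/CA3 stroma, 6.11-fold lower (5.34 to 6.996). LUM, the proteoglycan lumican, stood at 178.9 CPM in TCF21/CA3 cells and 389.9 CPM in the low-TCF21/CA3 stroma, 2.18-fold lower. NTS was 4.77-fold lower, CBLN2 4.43-fold, CXCL9 3.79-fold, ACTA2 2.34-fold, HOXA10 2.27-fold and WFIKKN2 2.16-fold. CYP17, the steroid enzyme listed under that symbol, had the smallest ratio only because 1 barcode held most of its UMIs. Without that barcode it stood at 2.58 CPM in TCF21/CA3 cells and 4.49 CPM in the low-TCF21/CA3 stroma. Of 11 collagens none passed 2-fold, with a median log2 ratio of -0.47, and of 34 other matrix genes 1 was higher and 2 lower. Over all measured genes 0.889% were higher and 0.726% lower.

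These differences were then read within each cluster, which holds the surrounding expression closer. STMN2 was higher in TCF21/CA3 cells than in low-TCF21/CA3 stroma in all 6 clusters. The ratio was 1.83 (1.33 to 2.56) within cluster 1, 2.05 (1.58 to 2.71) within cluster 5 and 1.83 (1.44 to 2.37) within cluster 6. On 7 UMIs in the low-TCF21/CA3 stroma, it was 4.72 (2.24 to 11.95) within cluster 7 and 2.61 (1.23 to 6.62) within cluster 11. Within cluster 8 it was 4.69 (1.87 to 15.2), on 44 against 5 UMIs. ITIH5 had ratios of 0.80 to 1.31 within the 6 clusters and CTTNBP2 of 0.75 to 1.49. ADM, among the highest genes against all other E85 barcodes, was likewise near level here. Its ratios were 0.69 to 1.26 within the 6 clusters, all with intervals that span 1. POSTN was 14.4-fold lower in TCF21/CA3 cells within cluster 1, where 15 of 124 low-TCF21/CA3 barcodes carried its UMIs. Within cluster 8 it stood at 677.9 CPM in TCF21/CA3 cells and 1058 CPM in the low-TCF21/CA3 stroma. On few UMIs it was 25.8-fold lower within cluster 5 and 8.74-fold lower within cluster 6, had a ratio of 0.84 (0.29 to 3.34) within cluster 11, and in cluster 7 had 2 UMIs in TCF21/CA3 cells and 0 in the low-TCF21/CA3 stroma. LUM had ratios of 0.60 (0.49 to 0.72) within cluster 1 and 0.65 (0.54 to 0.80) within cluster 8. Within cluster 5 its ratio was 1.07 (0.67 to 1.81), within cluster 6 it was 1.09 (0.65 to 1.94), within cluster 7 it was 0.94 and within cluster 11 it was 0.88, all with intervals that span 1. CRABP1 had ratios of 0.11 (0.06 to 0.19) within cluster 1 and 0.19 (0.05 to 0.65) within cluster 8. In clusters 5 and 11 the low-TCF21/CA3 stroma held 0 of its UMIs, and in cluster 6 it held 1. ACTA2 had ratios of 0.45 (0.37 to 0.55) within cluster 1 and 0.67 (0.49 to 0.93) within cluster 8. Its intervals spanned 1 within clusters 5, 6, 7 and 11.

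Other stromal cells of the E85 ovary carry PENK, the precursor of enkephalins, or NPY, neuropeptide Y. The mirror image of the rule, 2 or more UMIs of PENK and NPY without TCF21 or CA3, left only 24 barcodes with 62375 UMIs. Against them 119 of 6479 measured genes (1.84%) were 2-fold higher and 2567 (39.6%) lower, counts that rest on that small sum, since a gene absent there is set to a floor of 3 UMIs. The gate was therefore widened, after the data were seen, to 247 barcodes with 2 or more UMIs of PENK and NPY and the same other conditions, whatever their TCF21 and CA3. These PENK/NPY barcodes also carried TCF21 and CA3. TCF21 stood at 1457 CPM in TCF21/CA3 cells and at 1126 CPM in the PENK/NPY barcodes, and CA3 at 375.3 CPM in TCF21/CA3 cells and 279.2 CPM in the PENK/NPY barcodes. Both groups had similar depth, with medians of 2920 UMIs in TCF21/CA3 cells and 2849 in PENK/NPY barcodes. Stromal markers without TCF21 summed to 5612 CPM in TCF21/CA3 cells and 7034 CPM in PENK/NPY barcodes.

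Of 6785 measured genes, 243 (3.58%) were 2-fold higher in TCF21/CA3 cells and 60 (0.884%) 2-fold lower than in PENK/NPY barcodes. The PENK/NPY sum of 780819 UMIs is the smaller, so genes near the minimum rest on few UMIs there, and neither the counts nor their split is read further. The ligand WNT5A stood at 169 CPM in TCF21/CA3 cells and 70.44 CPM in PENK/NPY barcodes, a ratio of 2.4 (1.83 to 3.21). APCDD1, a membrane inhibitor of WNT signalling, had a ratio of 2.66 and ID3, a target of BMP signals, one of 2.39 (1.93 to 2.99). DHRS3 stood at 573.5 CPM in TCF21/CA3 cells and 274.1 CPM in PENK/NPY barcodes, a ratio of 2.09, and ADM at 158.9 CPM in TCF21/CA3 cells and 67.88 CPM in PENK/NPY barcodes, a ratio of 2.34. PLA2G4A had a ratio of 2.47, the kinase PLK2 2.21, POSTN 2.17 and IVNS1ABP 2.12. ITIH5 stood at 369.6 CPM in TCF21/CA3 cells and 184.4 CPM in PENK/NPY barcodes, a ratio of 2.00 (1.69 to 2.39). CTTNBP2 stood at 294.8 CPM in TCF21/CA3 cells and 162.6 CPM in PENK/NPY barcodes, a ratio of 1.81. MGP, an inhibitor of calcification, had the largest ratio, 4.23, but 390 of its 852 UMIs came from the deepest TCF21/CA3 cell. Without that barcode MGP stood at 88.5 CPM in TCF21/CA3 cells and 38.42 CPM in PENK/NPY barcodes, a ratio of 2.30 (1.59 to 3.45). This remainder was also uneven. Only 163 TCF21/CA3 cells held MGP, and the 8 with 10 or more UMIs, the deepest among them, held 534 of the 852.

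Among genes lower in TCF21/CA3 cells than in PENK/NPY barcodes, CXCL14, a chemokine, stood at 14.88 CPM in TCF21/CA3 cells and 75.56 CPM in PENK/NPY barcodes, 5.08-fold lower. NELL2, a secreted guidance protein, was 2.39-fold lower, ABCC9, a subunit of potassium channels, 2.32-fold and LUM 2.12-fold. SLC1A6, PCNX4 and ATP1B1 were 2.06-fold, 2.02-fold and 2.01-fold lower. MYBPC2, PLXDC2 and SPARC, 1.92-fold, 1.81-fold and 1.79-fold lower, stayed under 2-fold, and after thinning MYBPC2 had a log2 ratio of 0.19, in the other direction. SPARC stood at 686.7 CPM in TCF21/CA3 cells and 1227 CPM in PENK/NPY barcodes. COL1A1 stood at 502.4 CPM in TCF21/CA3 cells and 842.7 CPM in PENK/NPY barcodes, and none of 11 measured collagens passed 2-fold (median log2 ratio -0.27). The list counts that follow stand beside 3.58% higher and 0.884% lower over all measured genes, and are too small to be read as a pattern. Of 13 WNT genes 2 were higher and 0 lower, and of 14 BMP and TGF-beta genes 3 were higher and 0 lower. Of 11 retinoic acid genes 2 were higher and 0 lower. ALDH1A3, which makes retinoic acid and was singled out after its value was seen, had a ratio of 2.74 and stands beside DHRS3 in that last count. Perivascular markers summed to 402.2 CPM in TCF21/CA3 cells and 568.6 CPM in PENK/NPY barcodes; their part in these ratios was not tested.

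The groups differed in the clusters, described below, that they came from. Cluster 1 held 100 of the 247 PENK/NPY barcodes and 229 of the 1663 TCF21/CA3 cells, so the named genes were read again within clusters, an alternative chosen after the data were seen. Within cluster 1 ITIH5 stood at 117.4 CPM in TCF21/CA3 cells and 165.5 CPM in PENK/NPY barcodes, a ratio of 0.71 (0.49 to 1.03) in the other direction from that of the whole groups. Its ratio was 1.54 (1.05 to 2.36) within cluster 5, 2.25 (1.18 to 4.95) within cluster 6, 1.70 (1.06 to 2.88) within cluster 7 and 0.80 (0.52 to 1.26) within cluster 8, and cluster 11 held 1 of its UMIs in PENK/NPY barcodes. DHRS3 had a ratio of 1.19 (0.90 to 1.59) within cluster 1, 1.13 (0.86 to 1.51) within cluster 5, 1.48 (0.94 to 2.46) within cluster 6, 2.16 (1.47 to 3.30) within cluster 7 and 3.08 (1.71 to 6.11) within cluster 8, and in cluster 11 it had 4 UMIs in PENK/NPY barcodes. Within cluster 1, WNT5A had a ratio of 1.80 (0.96 to 3.60), ADM of 1.42 (0.84 to 2.53) and CTTNBP2 of 1.43 (0.96 to 2.18). PLK2 had a ratio of 0.89 and IVNS1ABP of 0.62 there, both with intervals that span 1. APCDD1, at 0.69 (0.26 to 1.94), and ID3, at 0.62 (0.30 to 1.34), also lay in the other direction within cluster 1. For APCDD1 the ratio was 2.17 (0.72 to 10.7) within cluster 5, 1.34 (0.45 to 6.57) within cluster 6, 1.87 (0.59 to 9.51) within cluster 7 and 3.08 (0.97 to 15.7) within cluster 8. CXCL14 stayed lower within cluster 1, with a ratio of 0.33 (0.19 to 0.58), where LUM had a ratio of 0.79 (0.65 to 0.97) and SPARC of 0.79 (0.71 to 0.88). SLC1A6, at 0.56 (0.40 to 0.80), and PCNX4, at 0.38 (0.17 to 0.81), were also lower there. ABCC9, at 0.99 (0.60 to 1.68), NELL2, at 0.88 (0.60 to 1.31), and ATP1B1, at 0.89 (0.71 to 1.13), were near level there. On few UMIs, NELL2 had ratios of 0.28 (0.11 to 0.82) within cluster 5 and 0.37 (0.18 to 0.83) within cluster 7, and ABCC9 of 0.40 (0.18 to 0.90) within cluster 8. SPARC had a ratio of 1.10 (0.89 to 1.38) within cluster 8. POSTN had 280 of its 379 UMIs of TCF21/CA3 cells in cluster 8, where its ratio was 9.24 (4.63 to 21.6). Its ratio was 2.09 (0.9985 to 4.88) within cluster 1 and, on 10 against 3 UMIs, 0.11 (0.03 to 0.60) within cluster 6. ID3 had a ratio of 0.84 (0.47 to 1.60) within cluster 7.

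Among the TCF21/CA3 cells themselves, those with both genes were set against those with TCF21 only, a split added after the data were seen because only 40 cells had CA3 without TCF21. Of 6391 measured genes, 16 (0.25%) were 2-fold higher and 16 (0.25%) lower in the 836 cells with both genes than in the 787 with TCF21 only, and after thinning 17 were higher and 5 lower. Among genes with a symbol, 50 CPM in 1 group and no part in the rule, only MGP was 2-fold higher, and only CCL21 and LUM 2-fold lower. STMN2 stood at 566.7 CPM in cells with both genes and 299.5 CPM in cells with TCF21 only, a ratio of 1.89 (1.73 to 2.07). LUM stood at 106.8 CPM in cells with both genes and 261.2 CPM in cells with TCF21 only, 2.45-fold lower, and the chemokine CCL21 at 13.67 CPM in cells with both genes and 63.95 CPM in cells with TCF21 only, 4.68-fold lower. INHBA, the activin subunit, was 1.96-fold lower, POSTN 1.86-fold and CXCL10 1.54-fold. This split was not read within the clusters described below, which differ in these genes. TCF21/CA3 cells of cluster 1 had 260 CPM of CA3, 401.1 CPM of LUM and 209.5 CPM of INHBA. Those of cluster 7 had 555.5 CPM of CA3, 91.55 CPM of LUM and 29.48 CPM of INHBA. The part of cluster mix in these ratios was not tested. The interferon-induced ISG15 had a ratio of 1.59, and PLCXD3, SLK, HOOK3, ITPR2 and ICE2 had ratios of 1.52 to 1.70. TRIB2, LTBP1 and TNRC18 were 1.52-fold to 1.58-fold lower. MGP, with a ratio of 2.17, again rested on the deepest barcode. Without it MGP stood at 79.3 CPM in cells with both genes and 102.7 CPM in cells with TCF21 only. ITIH5 was level, with 368.7 CPM in cells with both genes and 368.4 CPM in cells with TCF21 only, and CTTNBP2 stood at 318.4 CPM in cells with both genes and 268.6 CPM in cells with TCF21 only, a ratio of 1.19 (1.07 to 1.31).

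The 40 cells with CA3 only held 110571 UMIs. Of 4562 genes measured against TCF21-only cells, 160 (3.51%) were 2-fold higher and 134 (2.94%) lower, which became 76 higher and 270 lower with TMM factors, which shift the median log2 ratio by -0.22. ITIH5 stood at 416 CPM (304.6 to 554.9) in CA3-only cells and 368.4 CPM in TCF21-only cells, and CTTNBP2 at 289.4 CPM (198 to 408.6) in CA3-only cells and 268.6 CPM in TCF21-only cells. Both TCF21-only values lay within the CA3-only intervals.

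Clustering of all E85 barcodes without the 12 genes of the rule asked whether the TCF21/CA3 cells sit together on other genes. They did not form a cluster of their own. Of 19 clusters, 6 held 5% or more of them each, and together 1531 of the 1663 (92.06%), beside 1109 other barcodes. TCF21/CA3 cells made up 71.19% of cluster 11, 70.39% of cluster 5, 70.35% of cluster 6, 58.68% of cluster 7, 40.06% of cluster 8 and 39.21% of cluster 1. The PENK/NPY barcodes shared these clusters, with 100 in cluster 1, 38 in cluster 8 and 37 in cluster 7. Among the nearest neighbours of a TCF21/CA3 cell, on average 66.96% were TCF21/CA3 cells. The same mean was 60.07% for low-TCF21/CA3 stroma, 49.05% for PENK/NPY barcodes and 30.86% for the other E85 barcodes, with 41.29% of all barcodes being TCF21/CA3 cells.

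TCF21, which the rule required, lay between 1264 CPM (1158 to 1377) in cluster 8 and 1615 CPM (1547 to 1686) in cluster 5 among the TCF21/CA3 cells of the 6 clusters. Over all barcodes of those clusters it lay between 928.1 CPM in cluster 8 and 1451 CPM in cluster 5. As the clusters were made from the other genes, their levels are a description, with no test. In cluster 5, with 378 TCF21/CA3 cells, the leading genes were ADM, ITIH5 and CTTNBP2, and DHRS3 reached 812.3 CPM and STMN2 680.4 CPM. In cluster 6, with 458, CRISP3, KRT25 and TGFB2 led, and ITIH5 stood at 466 CPM. Cluster 7, with 257, was led by CCN2, SULF1 and LMCD1, and had the highest CA3, at 555.5 CPM. Cluster 1, with 229, was led by LRRN3, COL1A1 and INHBA. COL1A1 reached 1312 CPM there, against 233.7 to 728.7 CPM in the TCF21/CA3 cells of the other 5, whereas ITIH5, at 117.4 CPM, and the collagen COL12A1, at 44.57 CPM, were lowest there of the 6. Cluster 8 was led by CYP17, POSTN and CCN3, and POSTN stood at 677.9 CPM, against at most 83.5 CPM in the other 5. CYP17 was at 2.42 CPM in its TCF21/CA3 cells, so that leading gene came from other barcodes of the cluster. Cluster 11, with 84, was led by the interferon-induced genes MX2, ISG15 and IFIT1. MX1 stood at 1757 CPM there and at 35.7 to 69.0 CPM elsewhere.

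**Figure D4:**
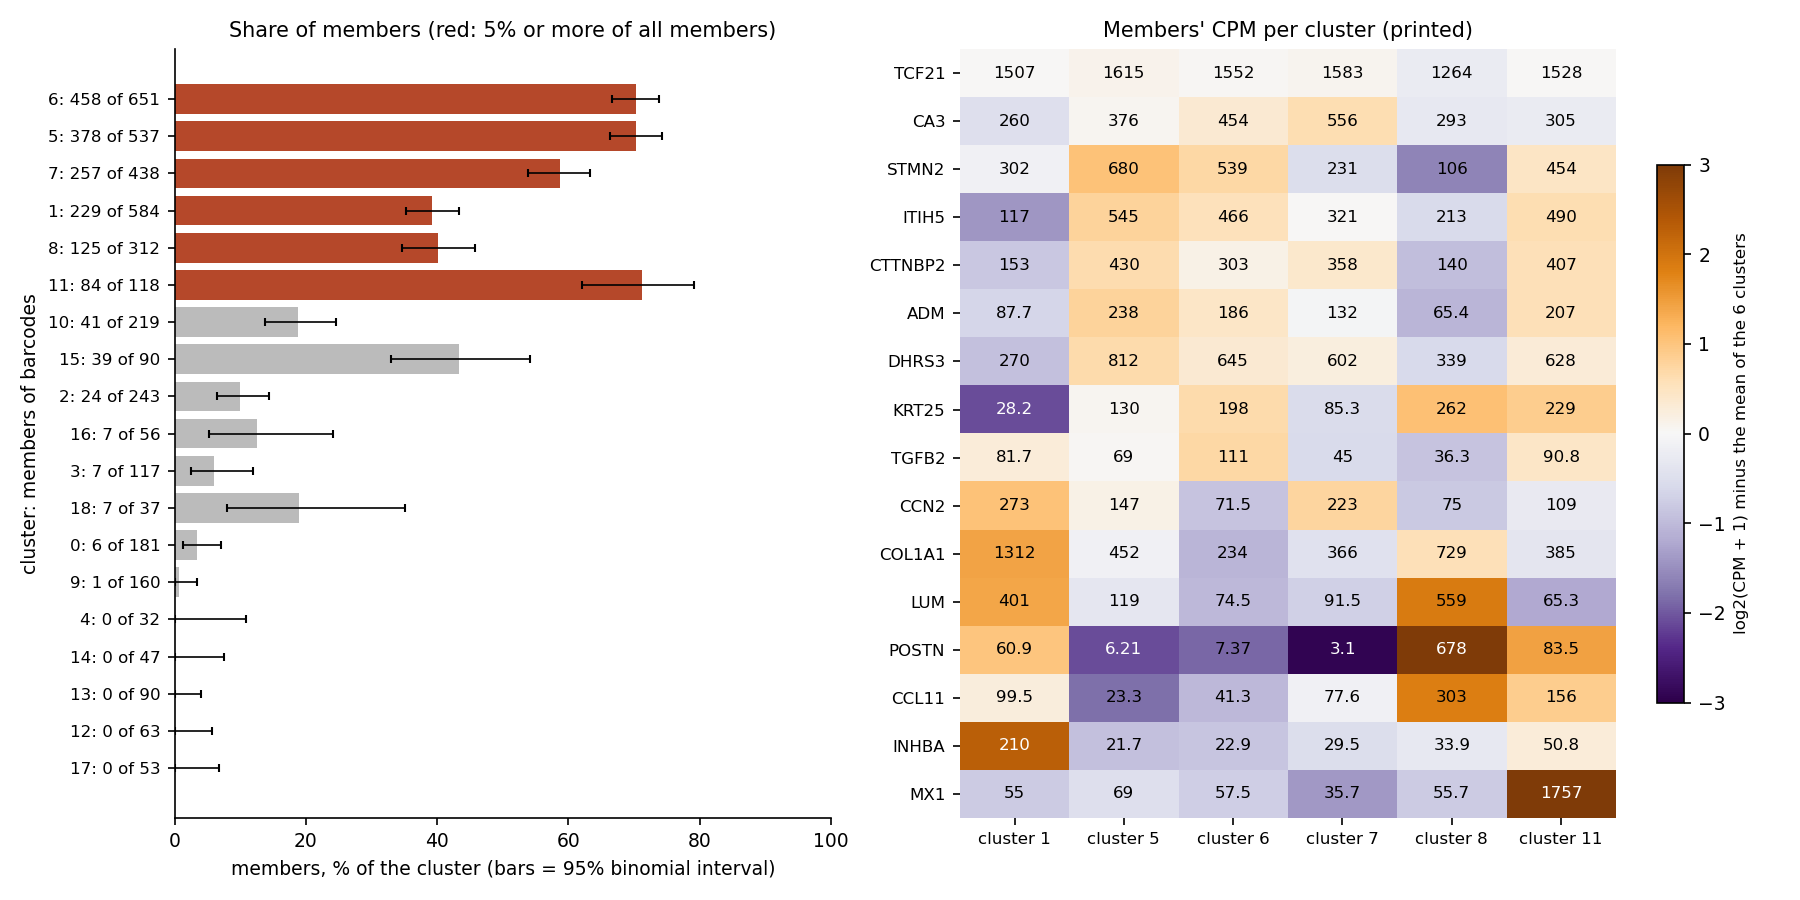
Left, share of TCF21/CA3 cells in each of 19 clusters of E85 barcodes made without the rule's genes, with 95% binomial intervals; red bars mark the 6 clusters that hold 5% or more of all TCF21/CA3 cells. Right, CPM of 16 genes in the TCF21/CA3 cells of those 6 clusters, coloured by log2 distance from the mean of the 6; POSTN peaks in cluster 8 at 677.9 and MX1 in cluster 11 at 1757.

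The remaining 132 TCF21/CA3 cells lay in clusters led by other genes. Cluster 10, with 41 of them, was led by HBAI and MIF, had a median mitochondrial share of 8.617%, and held 18.72% TCF21/CA3 cells. Cluster 15, with 39, was led by the replication genes RRM2 and UHRF1, and 43.33% of it were TCF21/CA3 cells, so the rule's mitosis limit left cells with replication genes in. Cluster 2, with 24, was led by SYT6 and VSTM2L, and cluster 18, with 7, by NTF3, ITGA7 and RGS5. Cluster 3, with 7, had the germ cell genes TDRD15, ZP2 and NPM2 among its leading genes. Cluster 0, with 6, had the keratins KRT7 and KRT19 among them, and cluster 9 held 1. The rule named no germ cell gene, so it could leave such barcodes in. Cluster 16, where 7 of 56 barcodes were TCF21/CA3 cells, was led by VPREB1, NEK2 and HJURP. STMN2 stood at 1677 CPM (1514 to 1853) over all its barcodes, against 614.6 CPM over all barcodes of cluster 5. High STMN2 was thus not particular to TCF21/CA3 cells. The deepest TCF21/CA3 cell, of 20812 UMIs, lay in cluster 18 and carried 390 MGP and 164 ACTA2 UMIs but 2 of TCF21 and 1 of CA3. Without the 132 barcodes, 383 genes were 2-fold higher and 1698 lower than in the other E85 barcodes.

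The same rule applied to the E125 library found 2651 barcodes, 34.68% (33.61 to 35.76) of 7645 with 500 or more genes. Their median depth of 3006 UMIs was close to the 2920 of the E85 TCF21/CA3 cells. With 1 library per stage, age, animal and library cannot be told apart. Of the 15 genes named as highest against the other E85 barcodes, 13 were within 2-fold between the stages, KRT25 was higher and COL12A1 lower in E85 TCF21/CA3 cells. ITIH5 stood at 369.6 CPM in E85 TCF21/CA3 cells and 406.4 CPM in the E125 barcodes, a ratio of 0.91 (0.86 to 0.96), and CTTNBP2 at 294.8 CPM in E85 TCF21/CA3 cells and 260.4 CPM in the E125 barcodes, a ratio of 1.13. ADM had a ratio of 1.03 (0.95 to 1.13), DHRS3 of 0.89 and NR2F2 of 1.009. The rule's own genes stood at 1457 CPM of TCF21 in E85 TCF21/CA3 cells and 1248 CPM in the E125 barcodes, and at 375.3 CPM of CA3 in E85 TCF21/CA3 cells and 228.4 CPM in the E125 barcodes. STMN2 stood at 438.4 CPM in E85 TCF21/CA3 cells and 323 CPM in the E125 barcodes.

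Many other genes differed between the stages. Of 8993 measured genes, 922 (10.3%) were 2-fold higher in E85 TCF21/CA3 cells and 1571 (17.5%) 2-fold lower. TUBB2B, a beta-tubulin, stood at 62.2 CPM in E85 TCF21/CA3 cells and 1.89 CPM in the E125 barcodes, 32.9-fold higher (20.2 to 57.1), but also at 108.5 CPM in the other E85 barcodes and 5.11 CPM in the other E125 barcodes. SPON2, a matrix spondin, stood at 8.01 CPM in E85 TCF21/CA3 cells and 379.6 CPM in the E125 barcodes, 47.4-fold lower, and at 3.54 CPM in the other E85 barcodes and 98.87 CPM in the other E125 barcodes. These 2 genes differed between the libraries in the same direction outside the rule as within it. So did the other 14 of the 16 named genes. WFDC2 was 10.99-fold higher, POSTN 7.55-fold, CDC23 6.48-fold, TMEM176B 5.08-fold, PVALB 4.78-fold, DLK1 4.70-fold and COX8A 4.65-fold. C4orf48 was 105-fold lower, CDC42EP5 98.4-fold, PODXL2 45.0-fold, GAS6 42.1-fold, ID1 29.8-fold, TAF10 28.2-fold and KLF13 26.7-fold. Among these, POSTN had a ratio of 2.95 and DLK1 of 2.77 between the other barcodes of the libraries. The part of library-wide differences in these ratios was not tested.

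**Figure D5:**
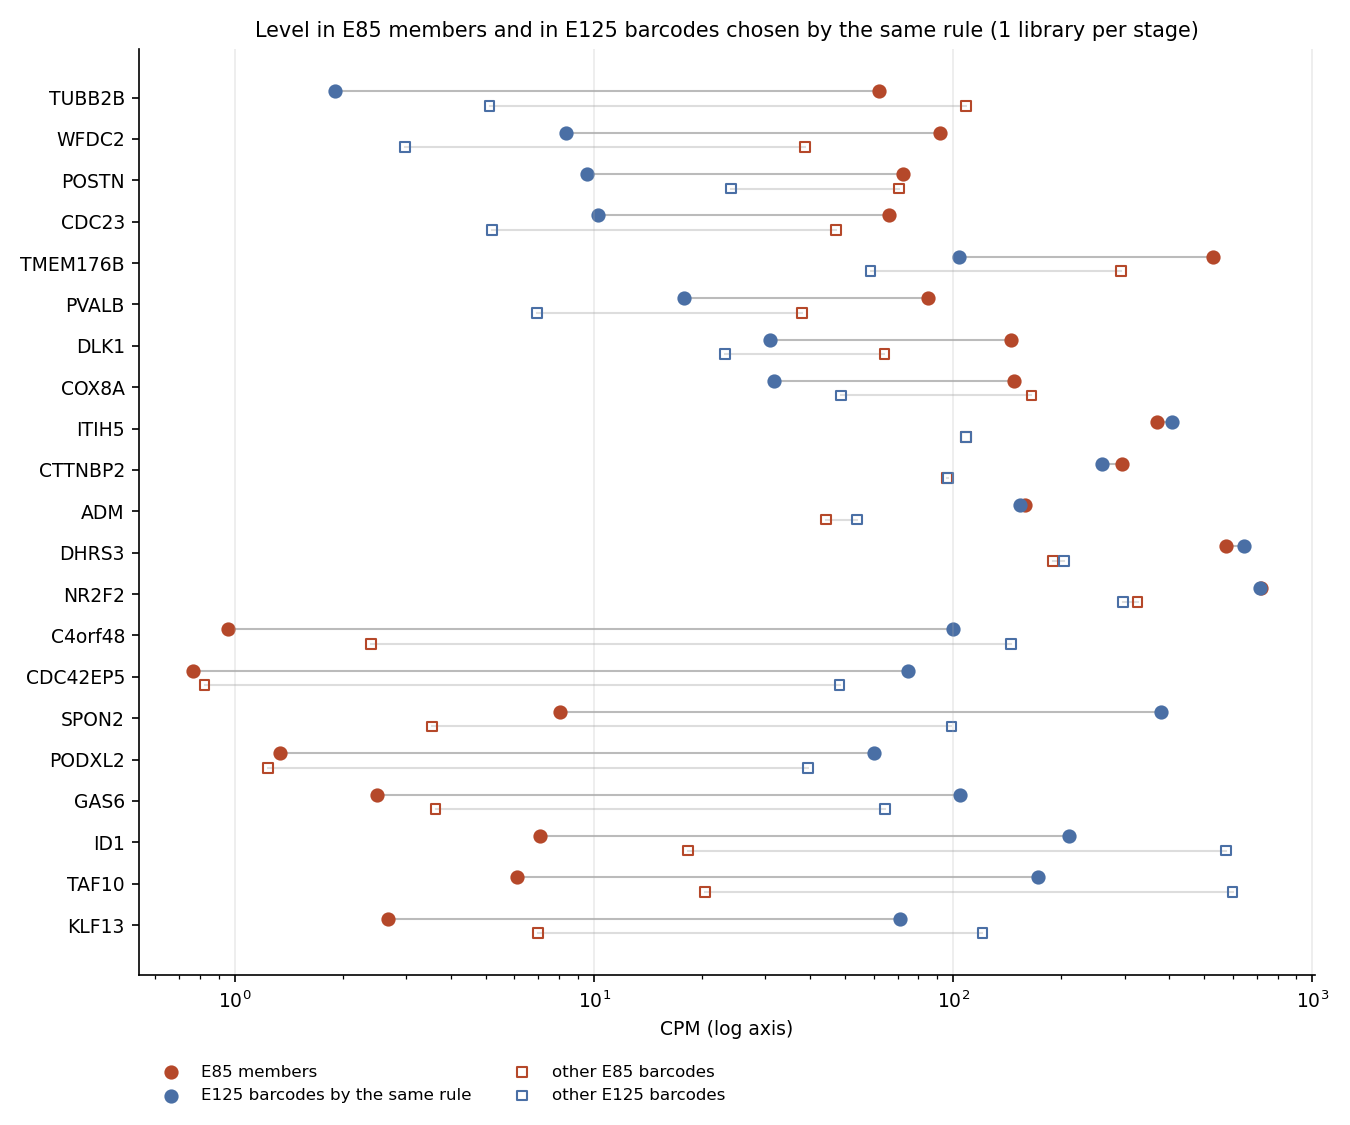
CPM (log axis) of 21 genes in E85 TCF21/CA3 cells (filled red) and E125 barcodes chosen by the same rule (filled blue), with the other barcodes of each library as open squares. ITIH5, CTTNBP2, ADM, DHRS3 and NR2F2, in the middle rows, lie close between stages, while the upper and lower rows differ in the same direction inside and outside the rule; in the ITIH5 and CTTNBP2 rows the open squares overlap.

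By role, collagens were more often lower than higher in E85 TCF21/CA3 cells, and nuclear respiratory genes more often higher. Over all measured genes 10.3% were 2-fold higher and 17.5% lower. Of 13 collagens 0 were 2-fold higher and 8 lower in E85 TCF21/CA3 cells (median log2 ratio -1.75). COL1A2 stood at 464.6 CPM in E85 TCF21/CA3 cells and 1065 CPM in the E125 barcodes, a ratio of 0.44, and COL12A1 at 76.89 CPM in E85 TCF21/CA3 cells and 316.5 CPM in the E125 barcodes, a ratio of 0.24. MGP stood at 162.6 CPM in E85 TCF21/CA3 cells and 2001 CPM in the E125 barcodes, 12.3-fold lower, and 22.6-fold lower without the deepest barcode. Of 37 other matrix genes 4 were higher and 11 lower, and of 22 turnover genes 0 were higher and 8 lower. Of 21 WNT genes 0 were higher and 9 lower, and of 23 BMP and TGF-beta genes likewise 0 were higher and 9 lower. Of 26 PDGF, FGF and IGF genes 1 was higher and 11 lower, and of 25 guidance and adhesion genes 1 was higher and 8 lower. Of 10 nuclear respiratory genes 6 were higher and 0 lower (median 1.05). HOX genes did not share a direction, with 2 of 10 higher and 3 lower. HOXA10 stood at 32.63 CPM in E85 TCF21/CA3 cells and 0.668 CPM in the E125 barcodes, 48.8-fold higher (21.97 to 134.9), and at 18.43 CPM in the other E85 barcodes and 0.474 CPM in the other E125 barcodes. HOXC4 had a ratio of 0.93.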

How the data were processed

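Fetal goat ovary at E85 and E125 was profiled with 1 droplet library per stage, 17748948 and 49692252 UMIs in all. The authors deposited raw UMI counts per gene and barcode. The submitters' processing notes name Cell Ranger 3.1 and the file headers name Cell Ranger 6.0.0 (build and gene annotation: not given in the sources used here). One protocol mentions testes, but the samples are labelled as female ovary and were taken as such. Of 27271 features, 43 symbols standing on more than 1 feature were summed, and 10655 labels carry no symbol. The rule, the 37 gene lists and the comparisons were chosen with earlier results of these data known.

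Counts were summed per group, with a floor of 3 UMIs per group sum in ratios. Measured genes had at least 50 UMIs over both groups, and a 2-fold difference was counted. Named genes had a symbol, 50 CPM in 1 group and no part in the rule. They were the 15 highest and 10 lowest ratios against other E85 barcodes, 10 and 10 against PENK/NPY barcodes and low-TCF21/CA3 stroma, 8 and 8 otherwise, and the abundant members of each list. Clusters used scanpy 1.11.5 (2000 variable genes, 30 components, 15 neighbours, Leiden resolution 1). Scrublet's own threshold called 2 barcodes at E85 and 0 at E125, so no doublet was removed in the main values, and the 155 and 557 highest scores were left out as an alternative. TMM factors came from edgeR 4.0.16 and size factors from DESeq2 1.42.0, as alternatives of scale only. The counting was tested on simulated data with known changes.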

Additional observations from a re-analysis of the deposited data

How the results depend on the processing

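Of the single-gene ratios under alternative settings, 1348 stayed within the counting interval of the main value, 13 that were 2-fold or more changed direction and 160 others left the interval. Within clusters, ratios against PENK/NPY barcodes on fewer than 50 summed UMIs were not counted. Those in the other direction included POSTN within cluster 6 (ratio 0.11) and ID3 (0.62) and APCDD1 (0.69) within cluster 1. MGP within cluster 7 (0.86) and PLA2G4A within cluster 11 (0.89) were others. The 13 were, against PENK/NPY barcodes, PLK2 (log2 ratio -0.17), IVNS1ABP (-0.70) and ITIH5 (-0.50) within cluster 1, ITIH5 (-0.32) within cluster 8, ID3 (-0.26) within cluster 7, and LUM (1.70) and ATP1B1 (0.68) within cluster 6, where PENK/NPY barcodes held 1 UMI of each; and also MGP against the mirror PENK/NPY gate after thinning (log2 ratio -0.29), MGP between cells with both genes and with TCF21 only after thinning (-0.057), averaged over barcodes (-0.12) and without the deepest barcode (-0.37), and LUM against low-TCF21/CA3 stroma within clusters 5 (0.10) and 6 (0.12). Against other E85 barcodes, 314 higher and 1665 lower genes became 93 and 472 after thinning to 2000 UMIs, 596 and 2737 with 10 or more summed UMIs and 3525 and 2737 with no minimum, and the higher became 90 averaged over barcodes. Listed genes, 66 higher and 121 lower, became 13 and 62 after thinning, and the higher 5 averaged over barcodes and 112 with no minimum. Against the 24 mirror-gate barcodes, 119 higher genes became 35 after thinning, 241 with TMM and 230 with DESeq2 factors, and 2567 lower became 6297 with 10 or more UMIs and 10925 with no minimum; the factors shifted the median log2 ratio by 0.23 and 0.21. For CA3-only cells, 160 higher and 134 lower became 97 and 82 after thinning, 76 and 270 with TMM and 81 and 255 with DESeq2 factors; the lower became 82 with 1000 genes per barcode, and the higher 3301 with 10 or more UMIs and 8458 with no minimum. Against E125, 922 higher became 1670 with 10 or more UMIs and 2006 with no minimum. At Leiden resolution 0.5, 2 clusters held 5% or more of the TCF21/CA3 cells where 6 did at resolution 1. Thinned to 1500 UMIs, ITIH5 was found in 38.22% of TCF21/CA3 cells, 19.56% of PENK/NPY barcodes and 18.35% of other E85 barcodes, and CTTNBP2 in 33.72% of TCF21/CA3 cells. The rule applied to thinned counts kept 1128 of 1371 TCF21/CA3 cells of 2000 or more UMIs (82.28%). Thinning and higher minima change how many genes can be counted; apart from that, the cause was not tested. With 1 library per stage no library could be left out, and counting error is the only error given. No paired analysis was possible because each stage had 1 library.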
